A study of Mus musculus with 4 samples.

Results

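Chemokines are small secreted proteins that draw leukocytes toward a tissue, and 10 of them were described here in sorted gamma delta lymphocytes of the colonic epithelium, a resident T cell population. The 10 genes were Cxcl9, Cxcl10, Cxcl1, Cxcl2, Cxcl16, Ccl2, Ccl7, Ccl6, Ccl9 and Pf4. They were read on 16 of the 45101 probe sets of the array, chosen as every probe set whose only gene symbol was one of the 10. They make up 10 of the 18194 genes that had such a probe set. The genes were chosen by their known log2 differences between the same 4 arrays, so those values are a description and carry no test.

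The lymphocytes were sorted from the colon of C57BL/6 mice raised under conventional conditions. The DSS group had 2 arrays, from mice that drank water with 2% DSS for 5 days and plain water for the next 3. DSS, dextran sulfate sodium, is a sulfated polymer that damages the lining of the colon. The untreated group had 2 arrays, from mice given nothing. The sorting, the C57BL/6 background and conventional rearing were shared by both groups, and whether animals were pooled for an array is not stated in the labels. Spread between the 2 arrays of a group may therefore be technical. The hybridisation controls, transcripts added before hybridisation, followed the groups: 18 such probe sets averaged 14372 and 15271 on the DSS arrays, against 82269 and 59067 on the untreated arrays. Treatment and the handling of the arrays cannot be told apart.

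CXC and CC chemokines differ in the spacing of their first cysteines and act through G protein-coupled receptors on the cells they attract. Cxcl9 and Cxcl10 are induced by interferon and attract activated T cells and NK cells through Cxcr3. Cxcl1 and Cxcl2 are induced through NF-kB by interleukin-1, TNF and bacterial products and attract neutrophils through Cxcr2. Ccl2 and Ccl7 attract inflammatory monocytes through Ccr2, and in colitis models these chemokines are known products of macrophages and of epithelial and stromal cells.

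Promoter sequences are shown for the interferon-induced and the neutrophil-attracting pairs, which were higher after DSS, unlike the monocyte-attracting pair. The promoters of Ccl6, Ccl9 and Pf4, also higher on both DSS arrays, were searched but are not shown. RefSeq promoters (GRCm38.p6) were matched for 7 of the 10 genes. None was available for Ccl2, Ccl7 or Cxcl16, so the monocyte-attracting pair could not be searched or shown. Each line gives the 250 bases before the annotated start, 5′ to 3′ on the gene's strand, with motif matches in capitals.
Cxcl9, chr5:92328080-92328329, minus strand: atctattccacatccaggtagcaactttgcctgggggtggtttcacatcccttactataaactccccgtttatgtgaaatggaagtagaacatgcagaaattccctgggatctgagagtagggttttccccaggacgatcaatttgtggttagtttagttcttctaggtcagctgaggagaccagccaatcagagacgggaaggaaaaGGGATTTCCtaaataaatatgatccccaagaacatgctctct
Cxcl10, chr5:92348890-92349139, minus strand: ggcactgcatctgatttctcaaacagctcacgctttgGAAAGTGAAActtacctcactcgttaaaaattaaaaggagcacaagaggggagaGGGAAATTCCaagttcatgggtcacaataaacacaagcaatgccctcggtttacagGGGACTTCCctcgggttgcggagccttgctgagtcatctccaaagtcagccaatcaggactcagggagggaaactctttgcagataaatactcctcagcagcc
Cxcl1, chr5:90890995-90891244, plus strand: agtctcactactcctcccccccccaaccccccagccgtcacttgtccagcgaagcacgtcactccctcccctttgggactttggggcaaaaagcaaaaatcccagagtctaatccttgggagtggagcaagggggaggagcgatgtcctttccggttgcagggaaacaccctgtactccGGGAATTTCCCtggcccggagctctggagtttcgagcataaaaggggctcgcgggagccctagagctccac
Cxcl2, chr5:90903649-90903898, plus strand: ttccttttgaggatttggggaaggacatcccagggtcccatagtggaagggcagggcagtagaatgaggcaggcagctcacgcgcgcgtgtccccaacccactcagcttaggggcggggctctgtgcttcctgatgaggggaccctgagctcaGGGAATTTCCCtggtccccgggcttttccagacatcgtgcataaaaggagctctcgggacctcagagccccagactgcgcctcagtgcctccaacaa

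Capitals mark 4 motifs searched on both strands and chosen after the sequences were seen. These were GGGANNTTCC and GGGANTTCC, both forms of the NF-kB site, GAAANNGAAA, the core of the interferon-stimulated response element, and TTCNNNGAA, the STAT site. Cxcl1 and Cxcl2 both held GGGAATTTCC, at bases -71 to -62 and at bases -97 to -88, and the same letters match the motif once more on the other strand, shifted by 1 base. It opens the longest run the windows of these neighbouring genes share, GGGAATTTCCCTGG, of 14 bases. Cxcl9 held GGGATTTCC at -42 to -34. Cxcl10 held GGGAAATTCC at -159 to -150 and GGGACTTCC at -103 to -95, and was the 1 gene of the 7 with the interferon element, GAAAGTGAAA at -213 to -204. The STAT motif was found in none of the 7 windows, 0 in all, and the windows of Ccl6, Ccl9 and Pf4 held none of the 4 motifs. Of 32851 promoter windows of this length, 1.21% held GGGANNTTCC, 1.43% held GGGANTTCC, 2.98% held GAAANNGAAA and 7.02% held TTCNNNGAA. A match describes letters and not a bound site.

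Across the 10 genes, 8 had signals on both DSS arrays that exceeded both untreated values, and 2, the monocyte attractants Ccl2 and Ccl7, had lower signals on both DSS arrays. Of all 18194 genes, 14.8% were higher on both DSS arrays and 25.1% were lower, and nothing is read from the members' counts because this contrast chose them. Values are deposited signals, which are linear intensities, and differences are DSS minus untreated of log2(signal + 32), where the added 32 shrinks differences of dim genes. Each gene was read on its probe set with the highest mean. Standard errors of single genes are from limma over all genes, with n = 2 arrays per group. These are bulk samples, so more cells of a kind and more RNA per cell cannot be told apart.

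**Figure D1:**
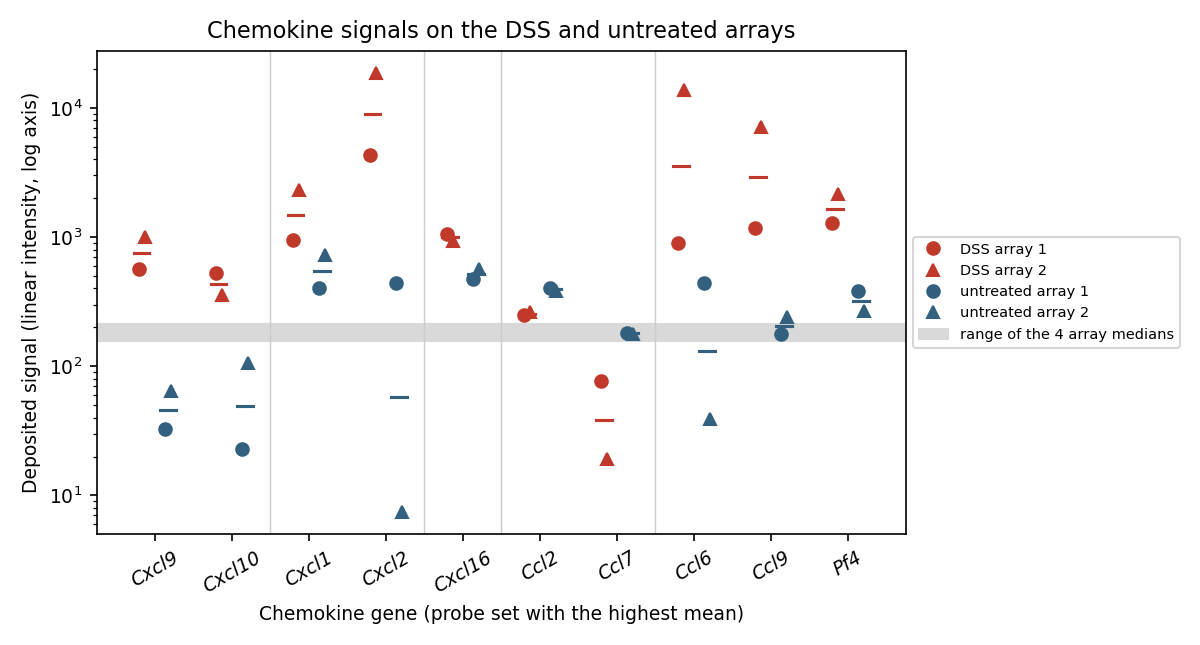
Deposited signal (log axis) of the 10 chemokine genes on each DSS array and each untreated array, with short lines at the geometric means and a grey band over the range of the 4 array medians. The DSS points of Ccl2 and Ccl7 lie below the untreated points, and those of the other 8 genes lie above.

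Both interferon-induced members were dim on the untreated arrays and well above the array median after DSS. Cxcl9 had signals of 570 and 1000.4 on the DSS arrays, against 32.9 and 64.4 on the untreated arrays. Cxcl10 had 523 and 354 on the DSS arrays, against 23.1 and 106 on the untreated arrays. The groups did not overlap for either gene, and the array medians of all probe sets were 157 and 163 on the DSS arrays and 194 and 214 on the untreated arrays. The log2 difference was 3.32 ± 0.61 for Cxcl9 and 2.41 ± 0.75 for Cxcl10. A second Cxcl9 probe set ran the other way, with 69.9 and 4.33 on the DSS arrays and 103 and 85.6 on the untreated arrays. It lay below the median of its array on all 4 arrays, and averaging it with the first brought the Cxcl9 difference to 1.13. Cxcl11, a related CXC chemokine that was not a member, overlapped between the groups, at -0.01 ± 0.94. It had 64.6 and 325 on the DSS arrays, against 281 and 80.3 on the untreated arrays, and was named after its values were seen.

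The neutrophil attractants held the widest difference of the 10 genes and also some of the widest spread between replicates. Cxcl2 (MIP-2) had 4348 and 18721 on the DSS arrays, against 443 and 7.49 on the untreated arrays. Both DSS arrays stood above both untreated arrays, and the untreated arrays differed from each other by 3.59 on the log2 scale, with array 1 the brighter. The value of untreated array 2 is far below its array median, so the size of this gap and of the difference depends on the added constant. The log2 difference between the groups was 6.05 ± 1.17 with 32 added, 7.20 with 1 and 5.58 with 64. It was 4.25 without untreated array 2 and 7.84 without untreated array 1.

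Cxcl1 (KC), the neighbour of Cxcl2 on chromosome 5, was read on 3 probe sets, and all 3 were higher on both DSS arrays. The brightest had 955 and 2312 on the DSS arrays, against 407 and 722 on the untreated arrays, a log2 difference of 1.40 ± 0.55. This was 0.78 without DSS array 2 and 2.03 without DSS array 1. The probe set not marked as shared with related transcripts had 306 and 642 on the DSS arrays, against 7.44 and 174 on the untreated arrays. Its log2 difference was 2.40, and that of the remaining probe set was 3.09. DSS array 2 was the brighter DSS array on each of them.

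Ccl2 and Ccl7, which lie next to each other on chromosome 11 and share the receptor Ccr2, were lower after DSS. Ccl2 (MCP-1) had 250 and 261 on the DSS arrays, against 405 and 385 on the untreated arrays. Replicates were close in both groups, and the groups did not overlap. The log2 difference was -0.57 ± 0.45, where the SE takes its spread largely from genes of like signal. Ccl7 (MCP-3) had 76.7 and 19.1 on the DSS arrays, against 182 and 178 on the untreated arrays, a difference of -1.51 ± 0.70. The Ccl7 difference was -0.96 without DSS array 2, -2.05 without DSS array 1 and -2.19 with 1 added in place of 32. Ccl7 lay below the array median on all 4 arrays, and its DSS values lay far below it.

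Genes of like signal also had medians below zero as deposited. Genes with mean signals of 267 to 403, the tenth of all genes that holds Ccl2, had a median log2 difference of -0.29, and 32.6% of them were lower on both DSS arrays, beside 25.1% of all 18194 genes. The tenth that holds Ccl7, from 77.1 to 121, had a median of -0.35, and 25.1% of its genes were lower, the same share as of all genes. Neither median was recomputed under another scaling. The scaling of the arrays also bears on Ccl2. The median of all genes tested was -0.07 as deposited, 0.01 once the arrays were quantile normalized and 0.25 with their medians made equal. The Ccl2 difference was -0.57, -0.31 and -0.26 in turn. Ccl2 stayed below zero in each, and lay 0.50, 0.32 and 0.51 below the median of all genes.

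**Figure D2:**
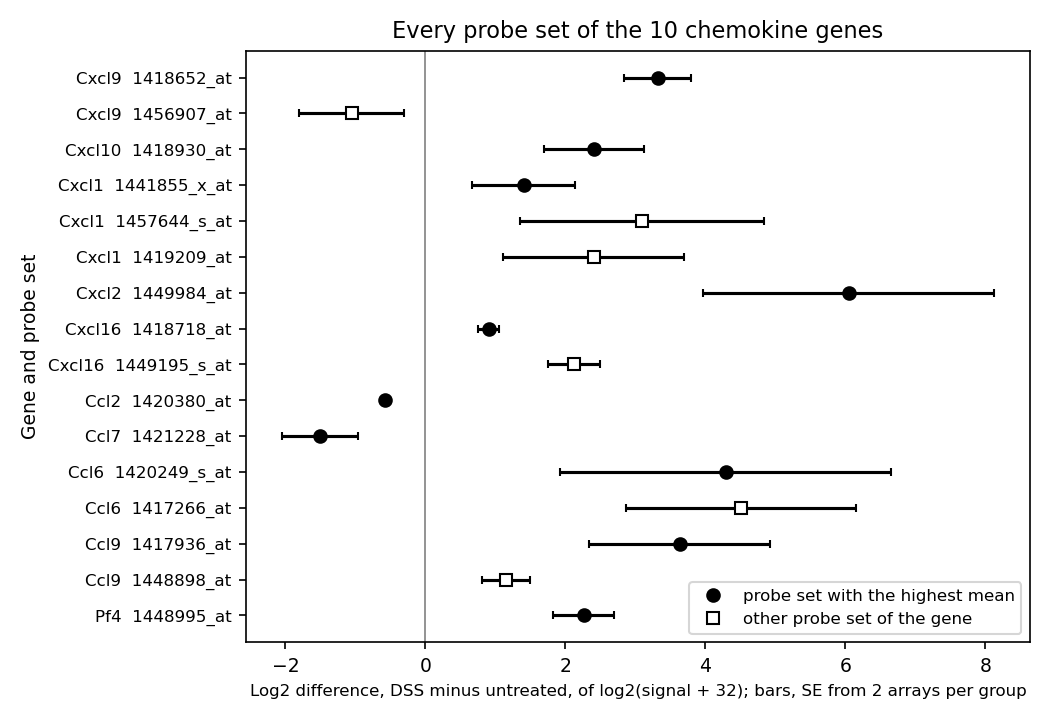
Log2 difference, DSS minus untreated, for each of the 16 probe sets (filled, the probe set with the highest mean of its gene; open, its other probe sets), with bars for the SE from 2 arrays per group. The Cxcl9 probe set at -1.05 and the single probe sets of Ccl2 and Ccl7 lie left of zero, and the other 13 lie right of it.

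The 3 classes were set side by side as the mean of each pair's log2 values. Their SEs are from the 2 arrays per group alone, without limma, and are not comparable with the single-gene SEs. For Ccl2 by itself the SE from the arrays was 0.04, against 0.45 from limma. Cxcl1 and Cxcl2 averaged 11.86 in DSS and 8.13 in untreated samples, a difference of 3.73 ± 1.09 (SE, n = 2 per group). Cxcl9 and Cxcl10 averaged 9.24 in DSS and 6.38 in untreated samples, a difference of 2.86 ± 0.48. Ccl2 and Ccl7 averaged 7.19 in DSS and 8.23 in untreated samples, a difference of -1.04 ± 0.26. The interferon-induced pair exceeded the monocyte-attracting pair in its difference by 3.90 ± 0.59, and the neutrophil-attracting pair exceeded it by 4.76 ± 1.29. The interferon-induced and neutrophil-attracting pairs differed by -0.86 ± 1.41, less than the spread between replicates. An exact permutation test of 2 arrays against 2 cannot go below p = 0.333, and none was made.

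The remaining 4 chemokines were higher on both DSS arrays. Ccl6 and Ccl9, neighbouring CC chemokine genes of mouse myeloid cells that signal through Ccr1, showed the widest gaps between the DSS arrays. Ccl6 had 907 and 13716 on the DSS arrays, against 441 and 39.4 on the untreated arrays, a log2 difference of 4.29 ± 1.32 on a probe set that can bind related transcripts. It was 2.35 without DSS array 2 and 6.23 without DSS array 1. Its other probe set, without that mark, had 358 and 3798 on the DSS arrays, against 25.1 and 18.5 on the untreated arrays. Both Ccl6 probe sets thus ranked the arrays alike by group, with DSS array 2 far above DSS array 1.

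Ccl9 had 1182 and 7123 on the DSS arrays, against 176 and 239 on the untreated arrays, a log2 difference of 3.63 ± 0.79. It was 2.35 without DSS array 2 and 4.91 without DSS array 1. The difference was 1.15 on its second, dim probe set, again with both DSS arrays above both untreated arrays. Pf4 (Cxcl4), a platelet granule chemokine that macrophages also express, had 1278 and 2153 on the DSS arrays, against 381 and 268 on the untreated arrays. Its log2 difference of 2.26 ± 0.45 was read on 1 probe set that exceeded the array median on all 4 arrays. Cxcl16, a membrane-bound chemokine and scavenger receptor that binds Cxcr6, had 1063 and 932 on the DSS arrays, against 475 and 563 on the untreated arrays, with a log2 difference of 0.90 ± 0.39 and of 2.12 on its other probe set. Replicates of Cxcl16 were close in both groups on the brighter probe set. The other probe set had 632 and 366 on the DSS arrays, against 91.0 and 81.2 on the untreated arrays. The mean difference over both Cxcl16 probe sets was 1.51.

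**Figure D3:**
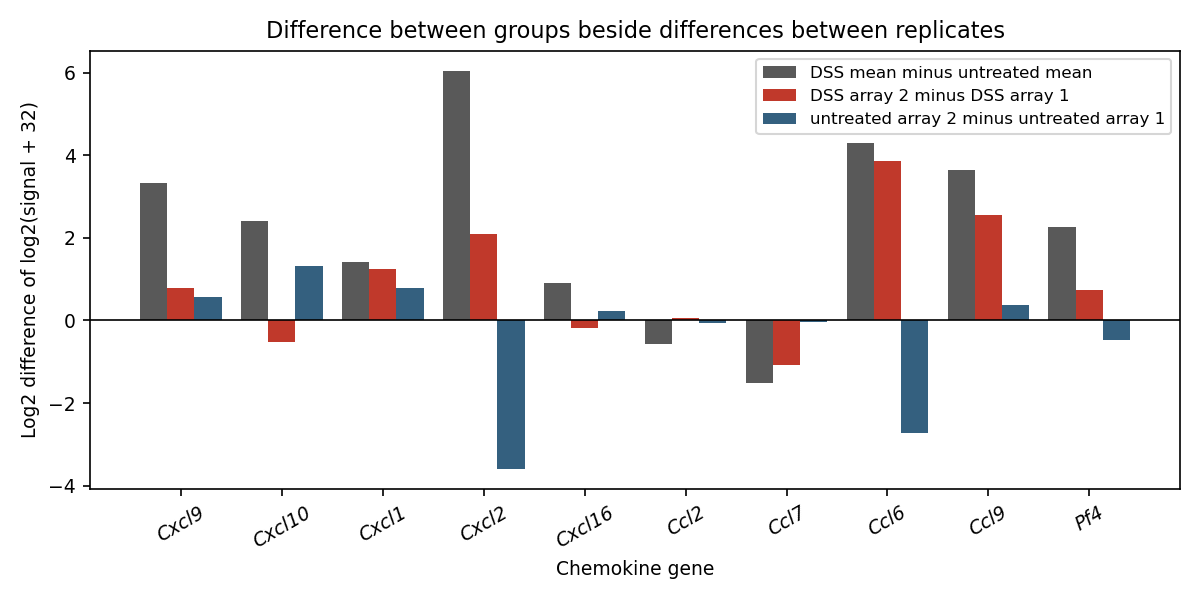
Log2 difference between the DSS and untreated means (grey), between the DSS arrays (red) and between the untreated arrays (blue) for each chemokine, with bars starting at 0. The gap between replicates is widest for Ccl6 among the DSS arrays, at 3.87, and for Cxcl2 among the untreated arrays, at -3.59.

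The DSS arrays did not rank the chemokines alike. DSS array 2 exceeded DSS array 1 by 3.87 for Ccl6, 2.56 for Ccl9, 2.10 for Cxcl2, 1.25 for Cxcl1, 0.78 for Cxcl9 and 0.74 for Pf4 on the log2 scale. Cxcl10 and Cxcl16 were dimmer on DSS array 2, by -0.52 and -0.18, as was Ccl7, by -1.09, and Ccl2 differed by 0.06. The median of the 14 macrophage markers differed by 0.36 between the DSS arrays, and that of the 10 neutrophil markers by 0.87. B cell markers also differed by 0.87, endothelial markers by 0.46, fibroblast markers by 0.40 and dendritic cell markers by 0.25. Epithelial markers were at -0.38, megakaryocyte and platelet markers at -0.07, mast cell markers at -0.02 and lymphocyte markers at -0.001. The part of any of these cells in the chemokine gaps was not tested.

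Limma was fitted to the 12425 genes that exceeded the median of their array on at least 2 of the 4 arrays, with Benjamini-Hochberg adjustment at 0.05. Of the 10 chemokines 9 passed this filter and Ccl7 did not. Of these 9, 8 were higher on both DSS arrays and 1 was lower, where 17.2% of all tested genes were higher and 23.8% lower. Cxcl9 and Cxcl10 passed it only through the DSS arrays. Limma called 0 of the 9 members, against 0% of all genes, and the smallest adjusted p of any gene was 0.0826. At an unadjusted p under 0.05, 3.71% of all tested genes were higher and 3.81% lower. No count is given for the members at that threshold, and the counts that follow are a description, because the same arrays chose them. Limma called 5 members (Ccl6, Ccl9, Cxcl2, Cxcl9 and Pf4) among 1785 genes without untreated array 1, and 7 members, with Cxcl1 and Cxcl10 added, among 752 genes without untreated array 2. It called 0 without either DSS array. The median log2 difference was 2.41 over the 9 members and -0.07 over all genes tested, and the 9 had to reach the filter, which favours members high in 1 group.

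The chromosome order of RefSeq GRCm38.p6 places the members in separate groups of neighbouring chemokine genes. On chromosome 5, Cxcl5, Ppbp, Pf4, Cxcl3, Cxcl15, Cxcl1 and Cxcl2 follow each other with 0 protein-coding genes between them. Cxcl9 lies 16 coding genes further on, and 1 coding gene separates it from Cxcl10. Cxcl3, the close relative of Cxcl2, had 288 and 243 on the DSS arrays, against 14.4 and 8.49 on the untreated arrays. It passed the filter only through the DSS arrays. Its log2 difference was 2.78 ± 1.10 with 32 added to untreated values far below the array median, and limma did not call it (adjusted p = 0.648). Like its neighbours Pf4, Cxcl1 and Cxcl2 it was higher on both DSS arrays. Cxcl15, at 1.21 ± 0.70, was also higher on both, with 78.3 and 220 on the DSS arrays, against 45.6 and 35.1 on the untreated arrays. It exceeded the array median on 1 array only and was not tested. Ppbp, a platelet chemokine, and Cxcl5, an epithelial neutrophil attractant, overlapped between the groups, at -1.18 ± 0.80 and 0.25 ± 0.64. Neither was tested, and Cxcl5 lay below the array median on every array. The neighbours were named by position after their values were seen. Pf4, Cxcl1 and Cxcl2 were chosen by this contrast. Among all 18194 genes, 14.8% were higher on both DSS arrays and 25.1% lower. Nothing is read from the likeness of these neighbours.

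On chromosome 11, Ccl2, Ccl7, Ccl11, Ccl12, Ccl8 and Ccl1 form one run and Ccl5, Ccl9, Ccl6, Ccl3 and Ccl4 another, 25 coding genes away. In the first run no gene was higher on both DSS arrays, a count of 0 of 6. Among all 18194 genes, 14.8% were higher on both and 25.1% lower. Ccl2 and Ccl7 were chosen by this contrast, and nothing is read from the count. Ccl11 (eotaxin), at -1.04 ± 0.66, was lower on both DSS arrays. It had 13.7 and 11.1 on the DSS arrays, against 132 and 18.6 on the untreated arrays. Ccl11 lay below the array median on every array and was not tested. Ccl12, Ccl8 and Ccl1 overlapped between the groups, at 0.46, 0.67 and -1.19. In the second run Ccl9 and Ccl6 lay between genes that lymphocytes express. Ccl3 was at 0.42 ± 0.40, Ccl4 at -0.11 ± 0.43 and Ccl5 at -1.48 ± 0.34 (limma adjusted p = 0.565 for Ccl5). Of these, Ccl3 was higher on both DSS arrays, Ccl5 was lower on both and Ccl4 overlapped.

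**Figure D4:**
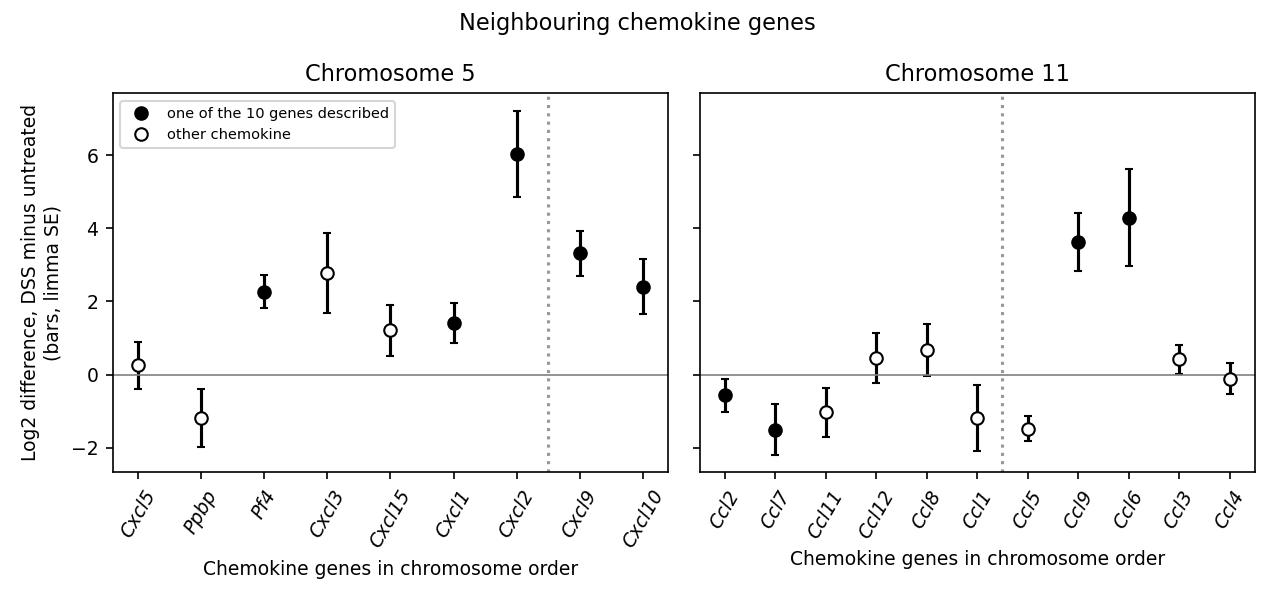
Log2 difference, DSS minus untreated, with limma SE, for chemokine genes in chromosome order (filled, the 10 genes described, and open, other chemokines). Dotted lines before Cxcl9 and Ccl5 mark where other coding genes intervene. Between Cxcl9 and Cxcl10 lies 1 coding gene, not marked. Ccl9 and Ccl6, at 3.63 and 4.29, stand above Ccl5, Ccl3 and Ccl4 beside them.

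Receptors for the members were measured to ask which of their targets' transcripts these samples held. Of 10 listed receptors 9 were measured and 7 tested, and limma called 0 of them. At an unadjusted p under 0.05, 1 was higher and 1 lower, beside 3.71% and 3.81% of all tested genes. Cxcr3, the receptor for Cxcl9 and Cxcl10, had 4491 and 5737 on the DSS arrays, against 4990 and 10115 on the untreated arrays, and these overlapped (-0.48 ± 0.46, limma adjusted p = 0.771). Cxcr6, the Cxcl16 receptor of tissue lymphocytes, had 1204 and 1352 on the DSS arrays, against 922 and 580 on the untreated arrays (0.78 ± 0.42, limma adjusted p = 0.669). Both lymphocyte receptors exceeded the array median on all 4 arrays.

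Ccr2, the receptor for Ccl2 and Ccl7, had 482 and 650 on the DSS arrays, against 31.1 and 297 on the untreated arrays, a log2 difference of 2.04 ± 0.82 (limma adjusted p = 0.648). Ccr1 had 358 and 613 on the DSS arrays, against 302 and 221 on the untreated arrays (0.79 ± 0.49, limma adjusted p = 0.69). Both were higher on both DSS arrays. The decoy receptor Ackr2, which clears inflammatory CC chemokines, had 150 and 130 on the DSS arrays, against 573 and 333 on the untreated arrays (-1.45 ± 0.55, limma adjusted p = 0.648), and passed the filter only through the untreated arrays. The atypical receptors Ackr1 and Ackr4 overlapped between the groups, at -0.14 ± 0.56 and -0.88 ± 0.78. Cxcr2, the neutrophil receptor for Cxcl1 and Cxcl2, lay below the array median on all 4 arrays, with 38.4 and 50.5 on the DSS arrays and 46.0 and 83.9 on the untreated arrays. So did Ccr3, with 36.4 and 40.9 on the DSS arrays and 119 and 26.0 on the untreated arrays. These receptors were not tested and were named after their values were seen.

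Inducers of the members fell into an interferon list and an interleukin-1, TNF, IL-17 and NF-kB list. Of 24 tested interferon genes limma called 0, with 3 higher and 0 lower at an unadjusted p under 0.05. The shares of all tested genes were 3.71% higher and 3.81% lower. The median log2 difference was 0.01 for the interferon genes and -0.07 over all tested genes. The interferon-stimulated genes Ifit2 (2.51 ± 0.79), Gbp3 (2.59 ± 1.01) and Mx1 (1.69 ± 0.66) were higher on both DSS arrays, and the immunoproteasome subunit Psmb8 (-1.14 ± 0.52) was lower, each with a limma adjusted p of 0.648. Ifit2, with 415 and 303 on the DSS arrays, against 36.3 and 35.5 on the untreated arrays, passed the filter only through the DSS arrays and is 1 of the 3 higher. Ifng, which encodes the interferon that induces Cxcl9, overlapped between the groups, with 1302 and 808 on the DSS arrays and 996 and 995 on the untreated arrays. It was named after its values were seen.

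Of 23 tested genes of the interleukin-1 and NF-kB list, limma called 0, with 4 higher and 0 lower at an unadjusted p under 0.05. Of all tested genes, 3.71% were higher and 3.81% lower at that threshold. The median log2 difference was 0.66 for the list and -0.07 over all tested genes. Il1b, a cytokine that induces Cxcl1 and Cxcl2, had 5862 and 7134 on the DSS arrays, against 365 and 354 on the untreated arrays, a log2 difference of 4.05 ± 0.38 (limma adjusted p = 0.0826). Its replicates lay close together in both groups, unlike those of Cxcl2. The NF-kB inhibitor Tnfaip3 was at 2.43 ± 0.50, the lipopolysaccharide coreceptor Cd14 at 2.38 ± 0.51 and the interleukin-1 receptor antagonist Il1rn at 1.34 ± 0.44 (limma adjusted p = 0.51, 0.544 and 0.648). All 3 were higher on both DSS arrays.

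Markers of the cells that could contribute chemokine transcripts were read on the same arrays. The labelled cells were borne out as far as T cells go: all 11 measured lymphocyte genes, Cd3d, Cd3e and Cd3g among them, exceeded the array median on all 4 arrays. Of the 14 listed, Trdc, Tcrg-C1 and Lck had no probe set under that single symbol, so no gamma or delta chain gene was read. The summed signal of these 11 lymphocyte genes was 253072 and 249535 on the DSS arrays, against 460984 and 355578 on the untreated arrays. Of the 11, 2 (Cd3d and Cd3g) were higher on both DSS arrays and 5 were lower, beside 14.8% and 25.1% of all 18194 genes. Gzma, a bright part of the sum, overlapped, with 71928 and 75419 on the DSS arrays and 187735 and 53264 on the untreated arrays. Of 14 macrophage markers 12 were higher on both DSS arrays and 0 were lower, with a summed signal of 63612 and 87756 on the DSS arrays, against 10155 and 3483 on the untreated arrays. Csf1r (4.02 ± 0.62), C1qb (4.18 ± 0.75) and Lyz2 (5.00 ± 0.73) were among them. Limma called 0 of the 12 tested, and 9 were higher at an unadjusted p under 0.05, beside 3.71% of all tested genes. Of these 9, C1qc and Mrc1 passed the filter only through the DSS arrays. Csf1r exceeded the array median on all 4 arrays, the untreated ones included. The part of macrophage RNA in the chemokine differences was not tested.

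Of 10 neutrophil markers measured, 0 were higher on both DSS arrays and 3 were lower, and their summed signal was 1283 and 2770 on the DSS arrays, against 2131 and 2151 on the untreated arrays. S100a8 overlapped between the groups, with 80.2 and 883 on the DSS arrays and 204 and 31.1 on the untreated arrays. Of 6 megakaryocyte and platelet markers 0 were higher and 2 were lower, with sums of 1777 and 1637 on the DSS arrays and 1526 and 3083 on the untreated arrays, while Pf4 was higher. Epithelial markers had 3 of 11 higher and 1 lower, with sums of 16225 and 13229 on the DSS arrays, against 13068 and 9606 on the untreated arrays. Fibroblast markers had 0 of 7 higher and 2 lower, endothelial markers 0 of 5 either way, dendritic cell markers 0 of 6 higher and 1 lower, B cell markers 0 of 4 either way, and mast cell markers 1 of 5 higher and 1 lower. Of all 18194 genes, 14.8% were higher and 25.1% lower, and nothing about cell types is read from the counts of these small lists.

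**Figure D5:**
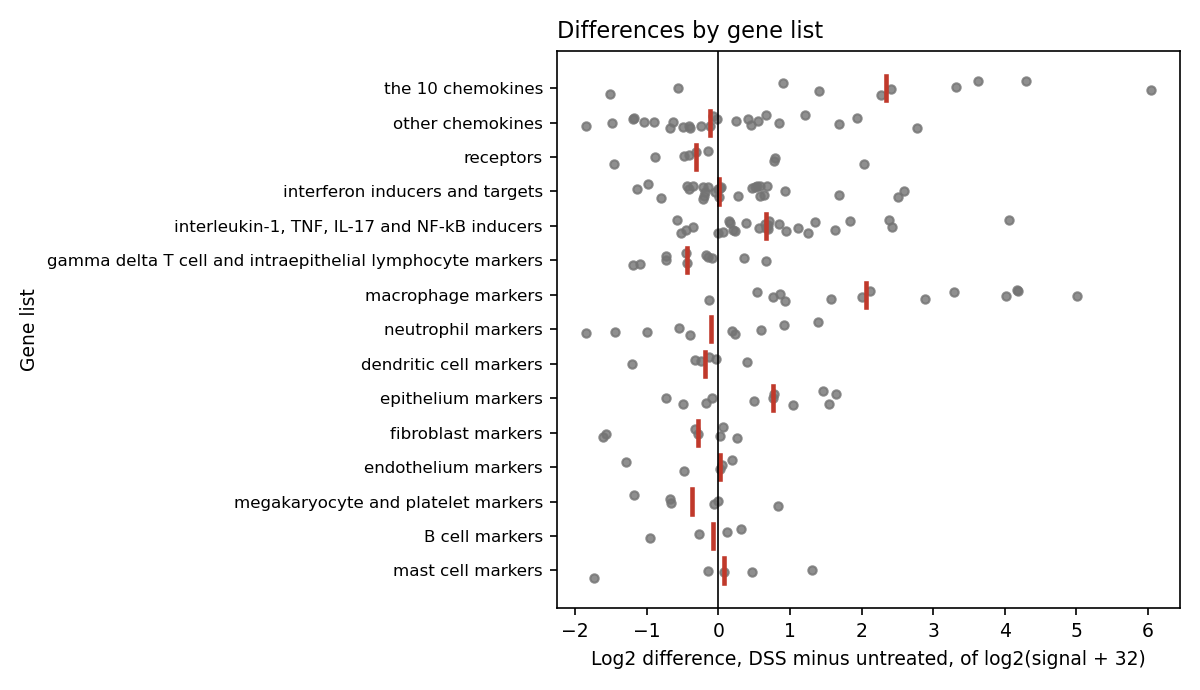
Log2 difference, DSS minus untreated, of each measured gene (points) in the 10 chemokines, the related gene lists and the cell type marker lists, with red lines at the medians. The medians of the 10 chemokines (2.34) and the macrophage markers (2.07) lie farthest right, and that of the neutrophil markers (-0.10) lies near zero.

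Genes with the most similar profiles were found by the Euclidean distance between log2 values, each centred on its own mean over the 4 arrays, among the tested genes that were not members. Closest to the mean of Cxcl9 and Cxcl10 were Rnf19b, Manea and Piga, at distances of 0.30, 0.37 and 0.44. Closest to the mean of Cxcl1 and Cxcl2 were Clec4e, Gm6377 and Dab2, at 0.23, 0.54 and 0.90. Clec4e had 550 and 1592 on the DSS arrays, against 90.6 and 20.8 on the untreated arrays. The likeness in array order follows from the choice by distance, and Cxcl1 itself was brighter on untreated array 2. Closest to the mean of Ccl2 and Ccl7 were Arid1b, 2310065F04Rik and Lingo1, at 0.03, 0.06 and 0.07.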

How the data were processed

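Total RNA from sorted gamma delta intraepithelial lymphocytes was isolated, amplified and labelled with biotin, and each sample was read on 1 array, per the labels' protocols. The authors deposited linear intensities, for which the submitters' processing notes name GCOS without version or settings. Leaving out the top and bottom 2%, each array's deposited intensities average 500. The number of arrays limits the precision, and scaling can move dim genes.

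A platform table gave 34958 probe sets 1 gene symbol, 932 several and 9211 none. By gene number 34754 matched RefSeq, which updated 0 symbols. Probe sets ending in _x_at or _s_at can bind related transcripts. Signals were analysed as log2(signal + 32). Limma 3.58.1 in R 4.3.3 was fitted with group as the only term and an intensity trend. Its genes exceeded the array median on at least 2 of 4 arrays, each on its brightest kept probe set. Members were described with no filter. The SEs of Ccl7 and of the other genes that did not pass the filter are from a limma fit without it. The step was tested on simulated data.

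Named genes were the 10 members, the 3 nearest genes per class, tested receptors (Cxcr2 and Ccr3 were added later), the 4 genes of smallest limma p per list and up to 3 per marker list. The members and lists were chosen with earlier results of these data known. Same-numbered arrays were not taken as pairs: their deviations from the group means correlated at 0.05. Figures were drawn with matplotlib 3.10.9.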

Additional observations from a re-analysis of the deposited data

How the results depend on the processing

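With all 4 arrays, other scalings, pseudocounts, filters and probe set choices gave 94 recomputed differences of the 10 chemokines, of which 13 moved by more than the spread between replicates and 0 changed sign. How the genes were chosen favours a stable sign, and leaving out an array can turn none of them, since the groups do not overlap. With a block for the replicate number, limma called 67 genes (61 higher, 6 lower) and 5 members (Ccl6, Ccl9, Cxcl2, Cxcl9 and Pf4). With an array left out it called 0 to 1785 genes and 0 to 7 members, and where 1 array was left in a group that array is assumed to vary like the other group. It called 1 gene when a probe set had to exceed the median on all 4 arrays and 3 when a gene's kept probe sets were averaged, and 0 under each other scaling, pseudocount, filter, probe set choice and variance model run. The all-array filter left 4 members, 3 of them higher on both DSS arrays, where 18.2% of all genes it kept were higher. The median difference was 1.15 over the 4 members and -0.06 over all genes kept. This filter gave no value for the 3 pairs, since it removed members of each. Scaling to a common median put the mean of Ccl2 and Ccl7 at -0.76. With a pseudocount of 1 this mean was -1.41 and that of Cxcl9 and Cxcl10 was 3.55. Averaging all probe sets, chosen after seeing the data, put Cxcl9 and Cxcl10 at 1.77. The cause of these moves was not tested beyond the settings' own construction. Leaving out each array gave 2.39 to 3.34 for Cxcl9 and Cxcl10, 2.89 to 4.56 for Cxcl1 and Cxcl2, and -1.30 to -0.78 for Ccl2 and Ccl7. Signals below the array median limit what Ccl7 and the untreated values of Cxcl9, Cxcl10 and, on array 2, Cxcl2 and Ccl6 can show, and no detection calls were used.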

Other observations

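Chemokines outside the gene groups above were measured on the same arrays, and limma called 0 of the 12 other chemokines tested. At an unadjusted p under 0.05, 1 was higher and 2 were lower, beside 3.71% and 3.81% of all tested genes. The thymus and small intestine chemokine Ccl25 had signals of 222 and 233 on the DSS arrays, against 50.3 and 47.4 on the untreated arrays, a log2 difference of 1.68 ± 0.87. It passed the filter only through the DSS arrays, as did Cxcl3, the 1 counted as higher. Cxcl13, which attracts B cells to lymphoid follicles, had 464 and 70.5 on the DSS arrays, against 699 and 862 on the untreated arrays, a difference of -1.84 ± 0.74. Both Ccl25 values on the DSS arrays lay above both untreated values, and both Cxcl13 values lay below, although the 2 DSS values of Cxcl13 differed widely.

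Ccl17, a chemokine of dendritic cells and macrophages, did not pass the filter and was named after its values were seen. It had 197 and 150 on the DSS arrays, against 12.0 and 32.5 on the untreated arrays.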
